A study of Mus musculus with 2 samples.

Results

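Wide ARID4B intervals were taken as the enriched stretches of chromatin whose width was 2000 bp or more in the list deposited for newborn mouse testis. They were chosen by this measured width alone, and there were 339 of them among 6632 intervals (5.11%), and they held 10.9% of all the sequence that the list covers. The chromatin came from wild type testes of a hybrid C57BL6/J and 129/SvEv background at postnatal day 1.5. One pool of 108 testes gave 1 ChIP library with an antibody against ARID4B, and 1 input DNA library of the same genotype, strain and age served as the control. There was no replicate and no tissue lacking ARID4B, so no value below carries an error between animals and dependence on ARID4B was not tested. Whole testis holds Sertoli, germ, Leydig, myoid, endothelial and immune cells, so binding in a smaller share of cells and weaker binding in each cell cannot be told apart. Each interval carries the authors' own evidence score, and because width and score come from the same enrichment, scores are described without a test. The number of reads behind an interval is unknown.

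ARID4B is a protein with an AT-rich interaction domain and a chromodomain, and belongs to the SIN3-histone deacetylase complex, a corepressor that removes acetyl groups from histones. It binds retinoblastoma family proteins and, with its relative ARID4A, is known for a part in male fertility and in Sertoli cell function. Most vertebrate promoters of widely used and developmental genes lie in CpG islands, stretches where the CG dinucleotide has escaped its usual loss, and broad chromatin domains at such promoters are known from genes that set cell identity.

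The promoters below were chosen after the values were seen, to show the sequence under intervals of contrasting shape. All are RefSeq sequences of GRCm38.p6, running from 250 bases before to 50 after the annotated start of transcription on the strand of the gene, with each CG dinucleotide in capitals. Hic1, Ptch1 and Sox4 have their start inside a wide interval of high score, Irf2bp2 has its start just outside one, Stub1 lies in the wide interval with the lowest score, and Rps6 lies in a narrower interval of high score. They are at chr11:75168103-75168402 (Hic1, minus strand), chr13:63565686-63565985 (Ptch1, minus), chr13:28953650-28953949 (Sox4, minus), chr8:126593937-126594236 (Irf2bp2, minus), chr17:25832870-25833169 (Stub1, minus) and chr4:86857318-86857617 (Rps6, minus).
Hic1: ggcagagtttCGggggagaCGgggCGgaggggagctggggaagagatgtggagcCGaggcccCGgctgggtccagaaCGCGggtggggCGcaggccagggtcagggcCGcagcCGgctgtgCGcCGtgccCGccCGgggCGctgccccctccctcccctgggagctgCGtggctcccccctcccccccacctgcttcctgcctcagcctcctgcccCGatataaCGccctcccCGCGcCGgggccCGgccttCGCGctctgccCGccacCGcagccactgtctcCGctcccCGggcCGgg
Ptch1: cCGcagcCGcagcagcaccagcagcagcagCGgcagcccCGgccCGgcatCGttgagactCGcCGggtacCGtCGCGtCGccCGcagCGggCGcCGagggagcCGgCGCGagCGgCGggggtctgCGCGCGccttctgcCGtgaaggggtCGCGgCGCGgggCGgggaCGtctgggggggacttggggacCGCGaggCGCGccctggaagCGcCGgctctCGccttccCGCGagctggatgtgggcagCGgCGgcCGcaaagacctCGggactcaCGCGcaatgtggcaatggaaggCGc
Sox4: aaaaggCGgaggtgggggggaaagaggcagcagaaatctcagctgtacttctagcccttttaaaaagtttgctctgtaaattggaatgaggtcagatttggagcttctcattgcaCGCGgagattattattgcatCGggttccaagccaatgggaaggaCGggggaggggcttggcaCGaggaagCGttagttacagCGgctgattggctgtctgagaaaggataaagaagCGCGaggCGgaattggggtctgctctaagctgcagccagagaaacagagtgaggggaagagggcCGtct
Irf2bp2: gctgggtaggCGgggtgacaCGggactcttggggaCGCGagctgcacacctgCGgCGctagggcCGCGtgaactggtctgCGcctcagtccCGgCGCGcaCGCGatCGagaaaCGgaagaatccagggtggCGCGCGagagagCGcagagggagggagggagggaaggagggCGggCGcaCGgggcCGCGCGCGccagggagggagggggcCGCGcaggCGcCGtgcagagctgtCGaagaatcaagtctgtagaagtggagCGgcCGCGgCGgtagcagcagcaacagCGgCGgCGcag
Stub1: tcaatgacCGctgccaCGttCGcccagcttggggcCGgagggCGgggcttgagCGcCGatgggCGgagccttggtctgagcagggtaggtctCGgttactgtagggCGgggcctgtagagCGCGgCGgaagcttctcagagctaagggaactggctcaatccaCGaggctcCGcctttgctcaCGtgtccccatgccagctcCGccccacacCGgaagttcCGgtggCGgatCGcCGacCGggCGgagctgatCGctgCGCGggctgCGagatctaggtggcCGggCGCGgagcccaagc
Rps6: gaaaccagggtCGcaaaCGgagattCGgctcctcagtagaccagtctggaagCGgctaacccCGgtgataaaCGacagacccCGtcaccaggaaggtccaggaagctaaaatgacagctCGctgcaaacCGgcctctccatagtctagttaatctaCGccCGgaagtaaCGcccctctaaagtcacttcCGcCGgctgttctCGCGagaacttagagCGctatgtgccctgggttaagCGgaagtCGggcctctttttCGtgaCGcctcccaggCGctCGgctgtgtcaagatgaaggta
The Ptch1 promoter held 47 CG dinucleotides, the Irf2bp2 promoter 39, the Stub1 promoter 31, the Hic1 promoter 29, the Rps6 promoter 23 and the Sox4 promoter 12. Dense and sparse CpG thus both occurred under wide intervals of high score, and the weakest wide interval held a denser promoter than that of Sox4.

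Wide intervals carried the highest scores of the list. Their median score was 343 (quartiles 233 and 491), against 121 (91.0 and 173) for the 6293 narrower intervals and 218 (146 and 299) for the 826 intervals from 1500 bp up to the rule, called next narrower below. All 20 best-scoring intervals were wide, as were 42 of the best 50 and 75 of the best 100. By deciles of the score, wide intervals made up 0.452% of the lowest, 9.05% of the ninth and 32.8% of the highest. Width was nevertheless not the same as score, since 158 of the 339 best-scoring intervals were wide. Spearman's rho between width and score was 0.31 across the wide intervals, 0.56 across the narrower ones and 0.61 across all, as a description over intervals of 1 library.

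Per length, the contrast was smaller. The median score per kb was 142 (quartiles 99.6 and 201) in wide intervals and 120 (94.9 and 156) in narrower ones. The 204 narrower intervals that scored at least as high as the wide median, called high-scoring narrower below, had 263 per kb (224 to 309), a level that their choice on score and width puts above the wide median. The best-scoring narrower intervals were at Fam222a (1743 bp, score 809.76), at Csnk1d, which encodes a casein kinase (1275 bp, 731.65), and between Elf1 and Wbp4 (1853 bp, 694.15). Those at the ribosomal protein gene Rps6 (1459 bp, 683.86) and the actin gene Actg1 (1431 bp, 679.84) followed.

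**Figure D1:**
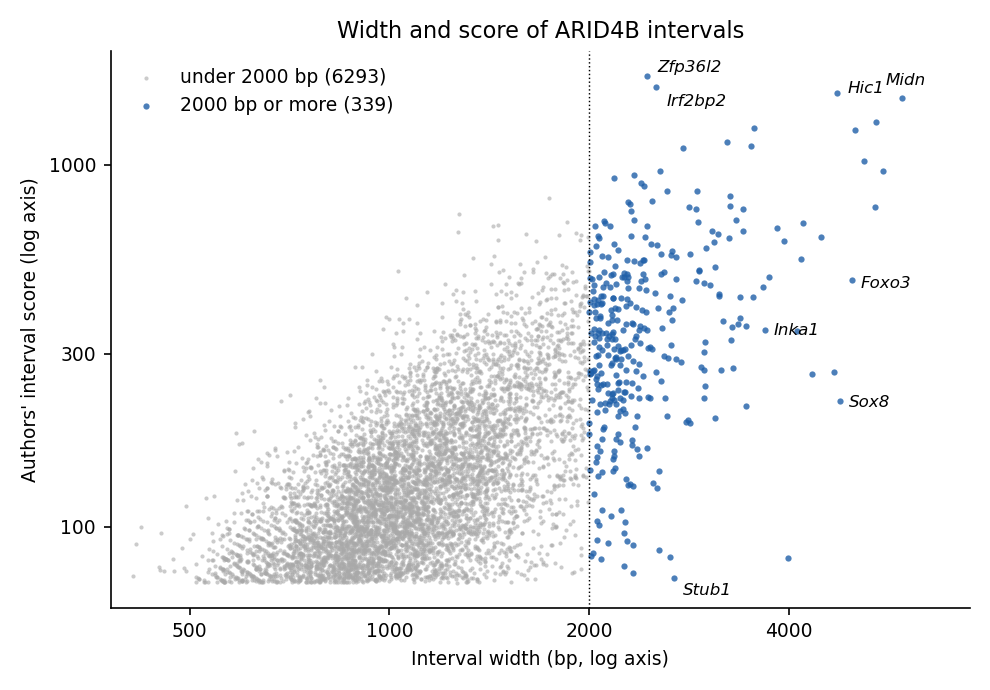
Each point is 1 interval of the ChIP library, with width in bp (log axis) against the authors' score (log axis), wide intervals in blue, narrower ones in grey, and the 2000 bp rule as a dotted line. Scores of the wide intervals run from 72.0 to 1760.61 and those of the narrower ones from 70.02 to 809.76.

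The first wide interval by score was at Zfp36l2, whose product binds AU-rich mRNAs and promotes their decay (chr17:84184950-84187392, 2443 bp, score 1760.61). The next was at Irf2bp2, a transcriptional corepressor gene (chr8:126591005-126593527, 2523 bp, 1641.15). Then came an interval that held the annotated start of Hic1, a zinc-finger repressor gene (chr11:75164932-75169661, 4730 bp, 1584.47). It came within 1 kb of an end of Hic1 and of Smg6, a gene of nonsense-mediated mRNA decay, but contained no gene end. The scores of these intervals all lay far above that of the best narrower interval. The widest interval of the list, 5930 bp, covered much of Midn, whose product carries nuclear proteins to the proteasome (chr10:80147464-80153393, score 1535.07). It held 2 annotated starts of Midn and came within 1 kb of neither end of the 12364 bp gene record.

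Next by score, Brd2, a BET bromodomain gene, shared a 5422 bp interval with H2-DMa (chr17:34117800-34123221, score 1314.68). Ptch1, which encodes the Hedgehog receptor, had 3547 bp inside its record (chr13:63562912-63566458, score 1261.13). Mex3b, an RNA-binding protein gene, had 5027 bp (score 1245.12). The leucine-zipper gene Tsc22d2 had 3224 bp (1160.13), Irf2bpl, a paralogue of Irf2bp2, had 3511 bp (1131.25), and Gata6, a zinc-finger transcription factor gene, had 2775 bp (1114.18). Prothymosin alpha (Ptma), a small acidic nuclear protein, had 5190 bp (1026.46), and Arhgef17, which encodes a guanine nucleotide exchange factor, had 5553 bp (964.78). From there to the twentieth, scores fell to 821.23, at Sox4 (964.74), the divergent pair Psma7 and Ss18l1 (938.92), Zfp703 (922.31), Gata4 (894.01), Mafa (876.04), Tnrc18 (848.37), Smad7 (848.3) and Zmiz1. Gata4 and Sox4 encode transcription factors of the gonad, among other tissues, and Smad7 encodes an inhibitor of TGF-beta signalling.

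The 10 widest intervals differed in score, but all scored above the upper quartile of all intervals (184). Those of Midn, Arhgef17, Brd2, Ptma, Mex3b and Hic1, named above for their high scores, were among these 10. The others scored lower, at Isyna1 with its neighbour Ssbp4 (5399 bp, score 764.63) and Foxo3, a forkhead factor gene (4982 bp, 481.37). The lowest scores of the 10 were at Ntn3 with Tbc1d24 (4687 bp, 266.74) and Sox8 (4787 bp, 222.85). Sox8 encodes a relative of the Sertoli cell factor SOX9. Its interval scored 46.6 per kb, against 335 per kb for the Hic1 interval of similar width.

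At the other extreme, 21 wide intervals scored at or below the median of all intervals (125). Their median score was 90.2 and their median score per kb 41.5. The lowest of all reached the ends of Jmjd8, Stub1 and Rhbdl1 (chr17:25831096-25833785, 2690 bp, score 72.0). It lay between 2 others of the lowest 5: chr17:25828206-25830287, reaching Wdr24, Jmjd8 and Stub1 (2082 bp, 81.16), and chr17:25833988-25837975, reaching Rhbdl1 and Rhot2 (3988 bp, 81.75). Stub1 encodes a ubiquitin ligase that works with chaperones, and Rhot2 a mitochondrial GTPase. This stretch of short, closely packed genes was therefore covered almost end to end at a low score. The other intervals of the lowest 5 were inside Plec, the gene of the cytolinker plectin (2330 bp, 74.16), and at Topors, Smim27 and Ndufb6 (2256 bp, 77.84).

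The 2000 bp rule cuts a continuous range. Just inside it lay intervals in Kmt2d (2001 bp, score 391.86) and at Sema5a (2002 bp, 193.55), Med9 and Rasd1 (2003 bp, 180.0), Nsd1 (2004 bp, 269.37) and Ift80 and Smc4 (2004 bp, 575.4). Just outside lay intervals in Gata4 (1 bp under the rule, 319.27) and Mideas (1998 bp, 508.22), and at Ranbp1 and Trmt2a (1996 bp, 289.8), Arf6 (1995 bp, 507.84) and Celsr3 (1994 bp, 209.79). Members and non-members next to the rule thus had scores of the same range. This interval of Gata4 lay 2027 bp from the wide one in the same gene.

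Most wide intervals lay at gene ends. Here an interval is at a gene end when it overlaps the 1 kb either side of an end of a protein-coding gene record. Either end of the record counts, so the end with the start and the far end are not separated. This held for 279 of 339 (82.3%, 95% Clopper-Pearson interval 77.8 to 86.2), against 80.2% of narrower intervals, 83.9% of the next narrower and 88.7% of the high-scoring narrower ones. The counting interval of the wide share contains the shares of the narrower and the next narrower class. It lies below the share of the high-scoring narrower class, but the interval of that class (83.6 to 92.7) overlaps it. An annotated start of transcription lay inside 237 of 331 wide intervals (71.6%, 66.4 to 76.4), with chromosome 18 not used here for starts. The corresponding shares were 63.1% of narrower intervals, 73.5% of the next narrower and 72.6% of the high-scoring narrower ones. A wider interval reaches more ends and starts by construction, and none of these differences was tested. Wide intervals with a start had a median score of 337, and the 94 without one, chromosome 18 again left out, had 350.

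Part of the wide intervals spanned a pair of genes. Ends of 2 or more protein-coding genes were reached by 82 of them (24.2%, 19.7 to 29.1), against 13.6% of narrower intervals and 21.1% of the next narrower. Starts on both strands were held by 69 (20.4%, 16.2 to 25), against 9.85% and 18.9%. Such pairs included Psma7, a proteasome subunit gene, with Ss18l1, a chromatin remodeller subunit gene (chr2:180041447-180043787, score 938.92), and Srsf2, a splicing factor gene, with Mfsd11 (chr11:116851590-116854076, score 795.71). Only 6 intervals reached 3 or more genes. The best-scoring of these covered the ends of Rxrb, which encodes a retinoid X receptor, Slc39a7 and H2-Ke6 (chr17:34028402-34032516, 4115 bp, score 348.04). One of 2820 bp reached the ends of 4 genes, Eme2, Mapk8ip3, Mrps34 and Nme3, at a score of 197.02.

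The midpoint of a wide interval often lay inside the gene. It fell inside a gene record over 1 kb from its ends in 122 intervals (36.0%, 30.9 to 41.3), against 21.1% of narrower intervals, 22.6% of the next narrower and 15.7% of the high-scoring narrower ones. Of these 122, 55 held an annotated start. The midpoint of a wide interval that begins at a gene end is further in by its width alone. The median distance from midpoint to gene end was 715 bp for wide and 370 bp for narrower intervals. Midpoints over 5 kb from any gene end were found for 14 wide intervals (4.13%, 2.28 to 6.83), all inside gene records, against 6.56% of narrower intervals.

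These 14 included 3 with an annotated start inside: Ptch1, Rreb1 (chr13:37825357-37828251, score 753.34) and Cbfa2t3 (chr8:122676768-122679085, 365.32). The Gata4 interval (chr14:63239618-63242012) was 30.9 kb from the nearest gene end, and Stox2, with 2421 bp (545.48), 34.9 kb. Kdm6b, a histone demethylase gene, held 4178 bp (549.15), Nectin1, a cell adhesion gene, 2279 bp (476.88), and Ahdc1 3352 bp (362.12). No annotated start was found inside the intervals of Stox2 or Ahdc1. For Gata4, Kdm6b and Nectin1 no start was listed in the annotation used, so whether their intervals hold one is unknown.

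From the start, wide intervals ran mainly into the gene. In the 143 that held exactly 1 annotated start, the interval extended a median of 679 bp upstream (quartiles 333 and 982) and 1686 bp downstream (1332 and 2134). The downstream part was the longer in 123 of 143 (86.0%). Narrower intervals were close to this: at 2888 of them the medians were 317 and 746 bp, and 86.3% were longer downstream. The median downstream share of the width was 71.2% in wide and 70.3% in narrower intervals. Among the 25 intervals of 3000 bp or more the medians were 848 and 2900 bp, with a downstream share of 78.7%. Extra width was thus added on both sides, with most of the length downstream at every width.

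**Figure D2:**
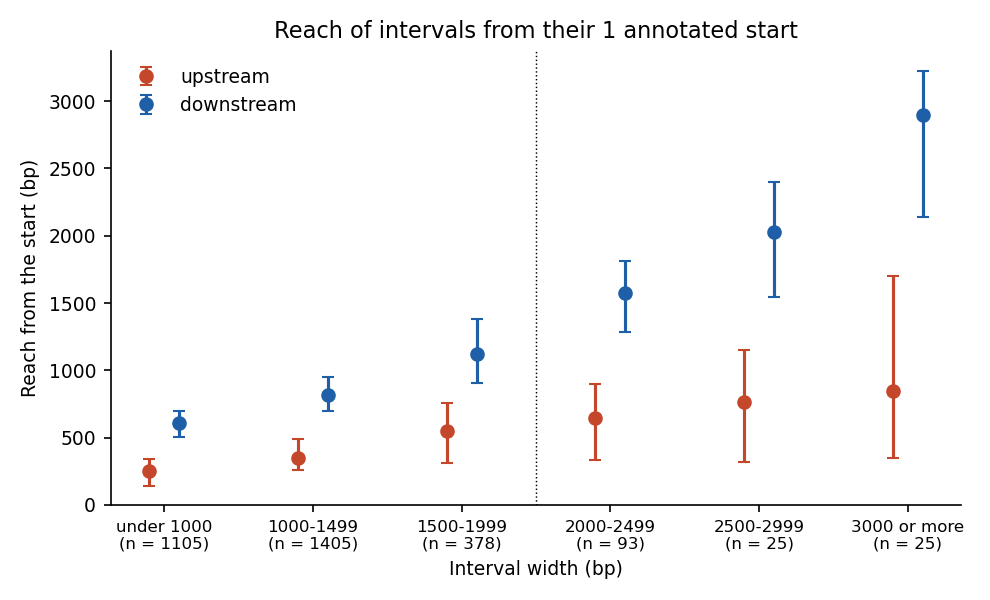
Median reach in bp (points, with quartiles as bars) upstream and downstream of the annotated start, by width class, for intervals that hold exactly 1 start. The dotted line marks the 2000 bp rule. Downstream reach is the longer in every class, with medians from 607 bp below 1000 bp to 2900 bp at 3000 bp or more.

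Single genes varied around these medians. At Hic1 the interval reached 1509 bp upstream and 3220 bp downstream, at Ptch1 723 and 2823 bp, and at Sox4 238 and 2318 bp. At Isyna1, which encodes inositol phosphate synthase, it ran 5032 bp downstream and over the whole gene. The opposite shape was seen at Cux1, a homeobox factor gene, with 2206 bp upstream and 857 bp downstream. The interval at the inhibitor of growth gene Ing1 reached 1636 bp upstream and 428 bp downstream of its 1 annotated start, and that at the profilin gene Pfn1 reached 2034 and 1211 bp. Upstream is counted here from the annotated start used, which can lie inside the gene record. The Ing1 and Pfn1 intervals each lay wholly inside the record of the gene, so their upstream parts were also in the gene. In the Cux1 interval a gene end lay 934 bp from the midpoint, so part of its upstream stretch may also be in the gene. Measured from Wt1os, the antisense neighbour of Wt1, the interval lay almost wholly upstream, with 2010 bp against 60 bp. Cux1, Ing1 and Wt1os were picked here after their values were seen.

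**Figure D3:**
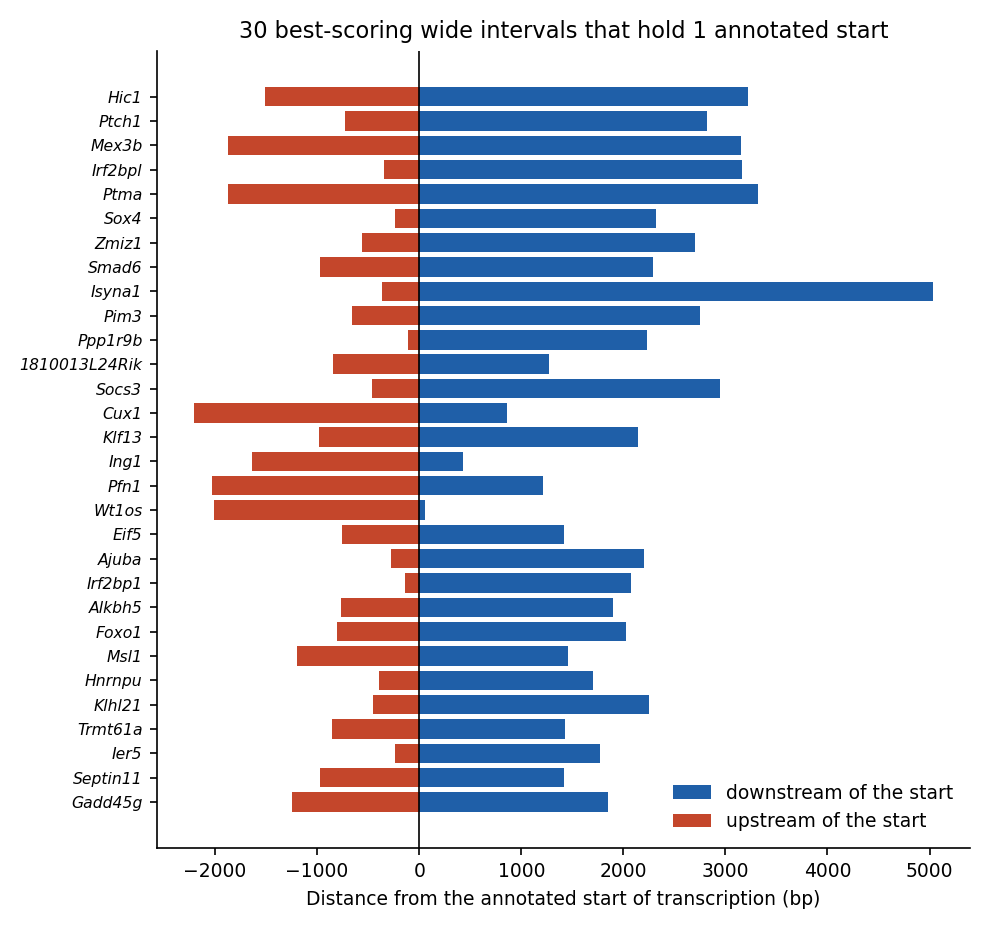
Extent in bp upstream (red, negative) and downstream (blue) of the annotated start for the 30 best-scoring wide intervals that hold exactly 1 start, in order of score from the top. Most bars are longer downstream, Isyna1 reaching 5032 bp, while those of Cux1, Ing1, Pfn1 and Wt1os are longer upstream.

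Some wide intervals began past the start. Of the 102 that held no annotated start, chromosome 18 included, 42 lay in the record of a gene whose start is known, and 35 of these (83.3%, 68.6 to 93.0) were downstream of it. Narrower intervals in the same position were downstream in 85.2% of 1124. The edge was within 1 kb downstream of the start in 14 wide intervals (33.3%, 19.6 to 49.5) against 46.4% of the narrower ones, and within 5 kb in 28 (66.7%, 50.5 to 80.4) against 62%. In 18 of the 42 (42.9%, 27.7 to 59.0) the start had an interval of its own, against 22.7% (20.3 to 25.2) for the narrower ones. Irf2bp2 was the best-scoring case. Its wide interval of score 1641.15 began 459 bp downstream of the start printed above, while the start itself lay in a separate interval of 1526 bp with a score of 85.41. Jund, an AP-1 gene, had its wide interval (780.89) 578 bp downstream of a start with no interval. That of Arid1a, a SWI/SNF subunit gene (545.45), was 72 bp downstream of a start that no interval held. This start lay in the gap of 197 bp between the wide interval and a narrower one of 797 bp (143.05). The wide interval of Tnrc18 (848.37) was 1881 bp downstream of a start under an interval of score 155.71.

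Part of the wide intervals had a close neighbour. A gap under 5 kb to the next interval was found for 78 (23.0%, 18.6 to 27.9), against 14.8% of narrower intervals, 14.5% of the next narrower and 16.2% (11.4 to 22) of the high-scoring narrower. A gap under 500 bp was found for 40 (11.8%, 8.56 to 15.7), against 7.71%, 5.57% and 11.3% of these classes, so that wide and high-scoring narrower intervals had nearly the same share. The 88 neighbours within 5 kb on either side had a median width of 1254 bp and a median score of 139. In 74 of 88 pairs (84.1%) the neighbour had the lower score and 14 neighbours were wide themselves. At Smad7 (score 848.3) the neighbours scored 252.33 and 109.95, and at Zfp36l2 the neighbour, 73 bp away, scored 140.49 against 1760.61.

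In 14 protein-coding genes 2 wide intervals were at an end or in the record. They included Inhbb, Ahdc1, Ptov1, Gse1, 1700017B05Rik, Stk11, Midn, Kdm6b, Plec, Jmjd8, Stub1 and Rhbdl1. Inhbb encodes an inhibin and activin subunit made by Sertoli cells, among others. Its 6786 bp record held a wide interval of 2283 bp (score 91.13), another of 2188 bp (330.38) and, 6 bp further on, a narrower one of 1261 bp (421.1). The narrower interval had the highest score of the 3. In Kdm6b the interval of 4178 bp scored 549.15 and a second wide one 132.28.

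The wide intervals fell on all 19 autosomes. They made up 8.76% of intervals on chromosome 17 (29 of 331, 95% interval 5.95 to 12.3), 7.65% on chromosome 10, 7.47% on chromosome 8 and 6.52% on chromosome 11. The lowest autosomal share was on chromosome 14, with 4 of 218 (1.83%, 0.502 to 4.63). The X chromosome had 29 intervals and none of them was wide, which allows a share of up to 10.3%.

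Together the wide intervals lay at an end of 362 of 21774 protein-coding genes (1.66%), while intervals of any width lay at 5930 (27.2%). Among genes with any interval at an end, 6.10% thus had a wide one. A further 54 genes held one only inside the record, making 416 genes (1.91%). Of the 339 intervals, 60 reached no protein-coding end, 197 reached 1 gene and 76 reached 2.

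Genes whose best interval was wide had shorter records in the median than the genes set beside them. The median length of 354 such records was 13.2 kb (quartiles 4.54 and 35.8), against 25.4 kb for 5576 genes whose best interval was narrower, 20.8 kb for 219 genes with a high-scoring narrower interval and 17.2 kb for all protein-coding genes. Records under 5 kb made up 27.4%, 12.1%, 20.1% and 22.8% of these. A wide interval covered a median of 10.3% of the record, and a narrower one 2.69%. The whole record lay inside a wide interval for 8 protein-coding genes: Fam89b, Gadd45g, H1f10, Inka1, Isyna1, Mrps34, Rhbdl1 and Rnasek. Gadd45g encodes a stress- and development-related protein needed for mouse sex determination, and its 1801 bp record lay in an interval of 3094 bp (score 521.95). H1f10, a linker histone gene of 1062 bp, lay in 2092 bp (415.7).

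The genes were next described by family, from 21 lists of 799 entries in all that were drawn up with results of these data known. Each count below is to be read beside the 1.66% of all protein-coding genes, and list members at the same interval or in several lists are not independent. Most lists had any interval more often than the 27.2% of all genes. Among genes with any interval at an end, 6.10% of all had a wide one. That share was 34.6% for AP-1, ATF, CEBP and Maf factors, 12.5% for forkhead factors and 11.8% for the actin and microtubule list. It was below 6.10% for proteasome (5.56%) and ribosomal protein genes (3.70%) and the lists with none. No list was tested. Transcription factor families had several of the larger shares. Among AP-1, ATF, CEBP and Maf factors, 9 of 36 (25%, 12.1 to 42.2) had a wide interval and 26 had any. The genes with the highest scores were Mafa (876.04), Jund (780.89), Jun (3936 bp, 617.69) and Maf (590.9), and Junb, Fosl2, Cebpa and Nfe2l2 were among the others. Fos (1107 bp, score 87.78) and Fosb (1883 bp, 74.29), examples chosen after their values were seen, had narrower intervals of low score, and Atf3 had none at its ends. Members of 1 dimer family thus differed in width and in score.

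Of Sox and Gata factors 5 of 27 had a wide interval (18.5%, 6.30 to 38.1). These were Gata6 (1114.18), Sox4 (964.74), Sox8 (222.85), Sox18 (2055 bp, 207.79) and Zfpm1 (2183 bp, 161.92), which encodes a GATA cofactor. The wide Zfpm1 interval lay 53127 bp downstream of the annotated start, and a narrower one nearer that start scored higher (1479 bp, 186.58). Gata4 had a wide interval inside its record only. Sox9, the Sertoli cell factor gene named here after its values were seen, had 3 narrower intervals, of 1243 bp (325.04), 1283 bp (178.8) and 696 bp (107.56). Klf, Sp and Egr factors had 4 of 31 (12.9%, 3.63 to 29.8): Klf16 (3328 bp, 703.32), Klf13 (3125 bp, 644.23), Wt1 (2071 bp, 626.23) and Klf2 (2270 bp, 363.37). Of forkhead factors 3 of 43 (6.98%, 1.46 to 19.1) were Foxo1 (2835 bp, 568.88), Foxo3 and Foxn2. Homeobox regulators outside the Hox clusters had 4 of 45 (8.89%, 2.48 to 21.2), namely Cux1 (654.56), Tgif2 (600.75), Six5 (409.79) and Tshz3 (318.17). Hox genes, which pattern the body axis, had no wide interval in 39, which allows a share of up to 7.69%, and 9 had a narrower one.

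Receptors and effectors of Wnt, TGF-beta, Notch and Hedgehog signalling had 7 of 59 (11.9%, 4.91 to 22.9). Frizzled genes, which encode Wnt receptors, gave 6 of the 7. Fzd2 had 2068 bp (score 490.82), Fzd7 2578 bp (353.01), Fzd5 3300 bp (273.89), Fzd9 2366 bp (202.11), Fzd8 3102 bp (199.18) and Fzd1 2193 bp (175.12). The widest Frizzled intervals were therefore not the best-scoring ones. The other member was Smad6 (3267 bp, 771.97), which like Smad7 encodes an inhibitory SMAD. Ptch1, Smad7 and Axin2 (2244 bp, 490.18), all known as inhibitors of the pathway they belong to, had a wide interval inside the record only. They are thus not among the 7, although the intervals of Ptch1 and Axin2 each held an annotated start of the gene. Dusp, Spry and Spred genes, which encode inhibitors of MAPK signalling, had no wide interval in 18, which allows a share of up to 16.7%. This absence depended on the rule: at 1500 bp the count was 6 of 18 (33.3%), against 5.62% of all protein-coding genes. Narrower intervals were at 10 of the 18, such as Spry2 (1867 bp, 203.62), an example chosen after its value was seen.

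Corepressor and RNA-level regulators were next. The small TSC22 and IRF2BP families had 4 of 7 (57.1%, 18.4 to 90.1), namely Irf2bp2, Tsc22d2, Irf2bpl and Irf2bp1 (2215 bp, 580.24), with a median best score of 856 against 132 over all genes with an interval. This list was formed around genes already known to score highly, so its share is no independent evidence. Among mRNA decay and binding families 4 of 28 (14.3%, 4.03 to 32.7) were Zfp36l2, Mex3b, Mex3d (498.72) and Zfp36 (403.34), while Zfp36l1, named after its values were seen, had a pair of adjacent narrower intervals of 1447 bp (368.56) and 1938 bp (224.73). With gaps under 500 bp joined, 8 of the 28 had a wide interval. ARID4B's own complex and the retinoblastoma family had 4 of 21 (19.0%, 5.45 to 41.9). These were Ing2 (540.77), Sinhcaf (450.42), Sin3a, the scaffold (2680 bp, 402.47), and the deacetylase gene Hdac1 (2207 bp, 372.07), with Ing1 (634.44) inside its record only. The Hdac1 interval also reached the neighbouring gene Marcksl1, and the only annotated start inside it was that of Marcksl1.

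Among other chromatin genes, BET, Polycomb, KMT and KDM genes had 2 of 46 (4.35%, 0.531 to 14.8), Brd2 and Kmt2e (226.27). SWI/SNF and CHD remodellers had 2 of 33 (6.06%, 0.743 to 20.2), Ss18l1 and Smarca2 (174.13), with Arid1a inside its record only. Both counting intervals include the background of 1.66%. Among members with any interval at an end the shares were 8.70% and 9.52%, against 6.10% over all genes. SR protein and hnRNP splicing regulators had 5 of 38 (13.2%, 4.41 to 28.1): Srsf2 (795.71), Hnrnpk (699.97), Hnrnpu (560.4), Hnrnpa0 (499.65) and Hnrnpdl. Hnrnpk shared its interval with Rmi1, and Hnrnpdl with Enoph1.

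**Figure D4:**
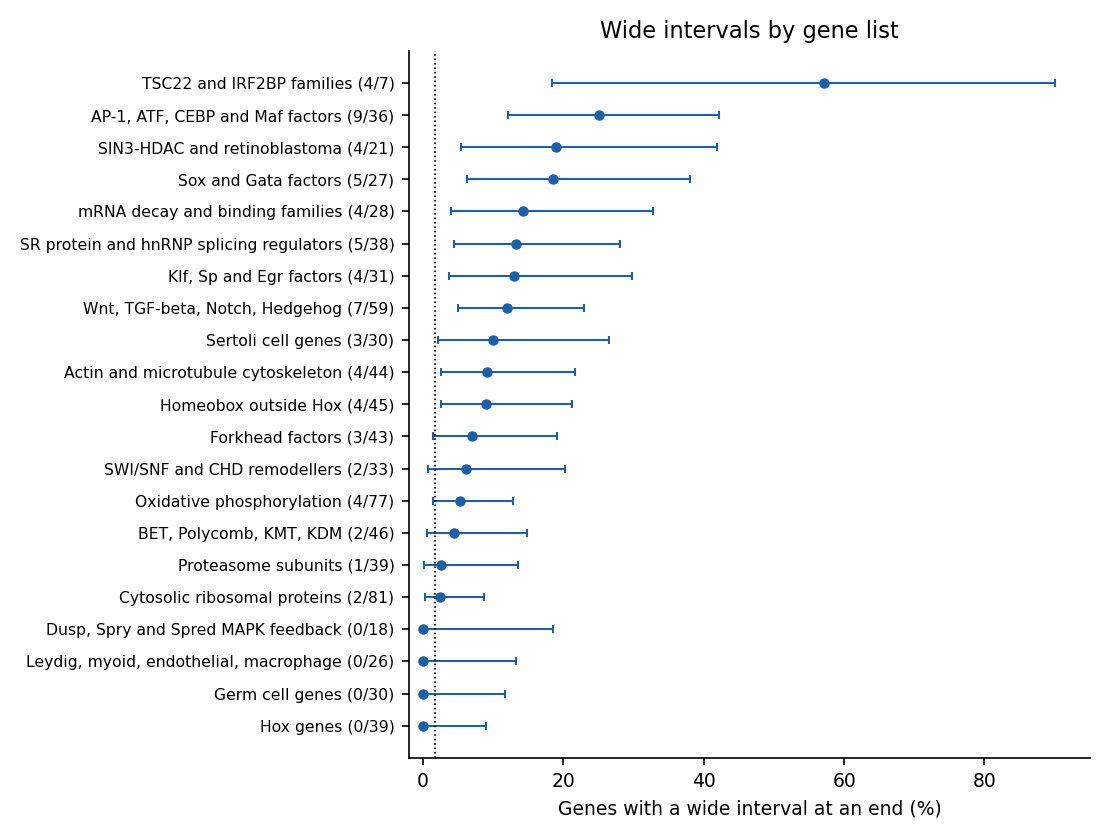
Share of each list's protein-coding genes (%) with a wide interval at an end, with 95% Clopper-Pearson intervals and the counts in the labels. The dotted line is the share over all protein-coding genes, 1.66%. Shares run from 0 in 4 lists to 57.1% in the list of 7 TSC22 and IRF2BP genes.

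Of the 81 cytosolic ribosomal protein genes 54 had an interval and 2 had a wide one (2.47%, 0.300 to 8.64), a share near the 1.66% of all genes. Among the 54 with an interval the share was 3.70%, below the 6.10% of all genes with one. One of the 2 was Rpl7, which shared its interval with Rdh10 (2159 bp, 396.82). At 1500 bp 16 of 81 (19.8%) had one, against 5.62% of all genes. Their best intervals had a median width of 1314 bp, a median score of 249 and a median score per kb of 174, against 1132 bp, 132 and 123 over all genes with an interval. Rps6 (1459 bp, 683.86), whose promoter is printed above, and Rpl32 (1269 bp, 654.1) were the highest. The proteasome had 1 of 39 (2.56%, 0.0649 to 13.5), Psma7. Oxidative phosphorylation had 4 of 77 (5.19%, 1.43 to 12.8), namely Ndufa13 (250.92), Atp5j (246.22), Uqcrh (217.71) and Ndufb6 (77.84). In each of these 4 the interval also reached the end of a neighbouring gene. The actin and microtubule list, which was mixed and also took in the lamin gene Lmnb1, had 4 of 44 (9.09%, 2.53 to 21.7). These were Pfn1 (3246 bp, 628.39), Lmnb1 (2099 bp, 460.59), Actb (3161 bp, 271.74) and Tubb5 (2234 bp, 110.83).

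Genes typical of cell types of the testis were also counted, and no interval was assigned to a cell type. Sertoli cell genes had 3 of 30 (10%, 2.11 to 26.5): Wt1, Sox8 and Inhbb. Gata4 and Nr5a1 (2923 bp, 695.01), both transcription factors of gonadal somatic cells, had one inside the record only. Germ cell genes had none in 30, which allows up to 10%, and 5 had a narrower one. Genes of Leydig, myoid, endothelial and macrophage cells had none in 26, which allows up to 11.5%, and 7 had a narrower one. The Sertoli gene Amh (1663 bp, 352.5), the growth factor gene Gdnf (1682 bp, 362.69) and the germ cell gene Dazl (1034 bp, 183.38), named after their values were seen, had intervals under the rule.

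Promoter sequence was compared for 327 promoters in wide intervals. Their median GC content was 66.7% (quartiles 62.7 and 72.0), against 65.3% in 4528 promoters in narrower intervals, 67.3% in 195 in high-scoring narrower ones and 53.7% in 16400 with no interval. The ratio of observed to expected CpG had medians of 0.868, 0.843, 0.909 and 0.394, and the number of CG dinucleotides in the 300 bases 28, 26, 30 and 8. The quartile ranges of the 3 classes with an interval overlapped widely. Base composition thus set promoters with an interval apart from those without, and hardly separated wide from narrow.

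**Figure D5:**
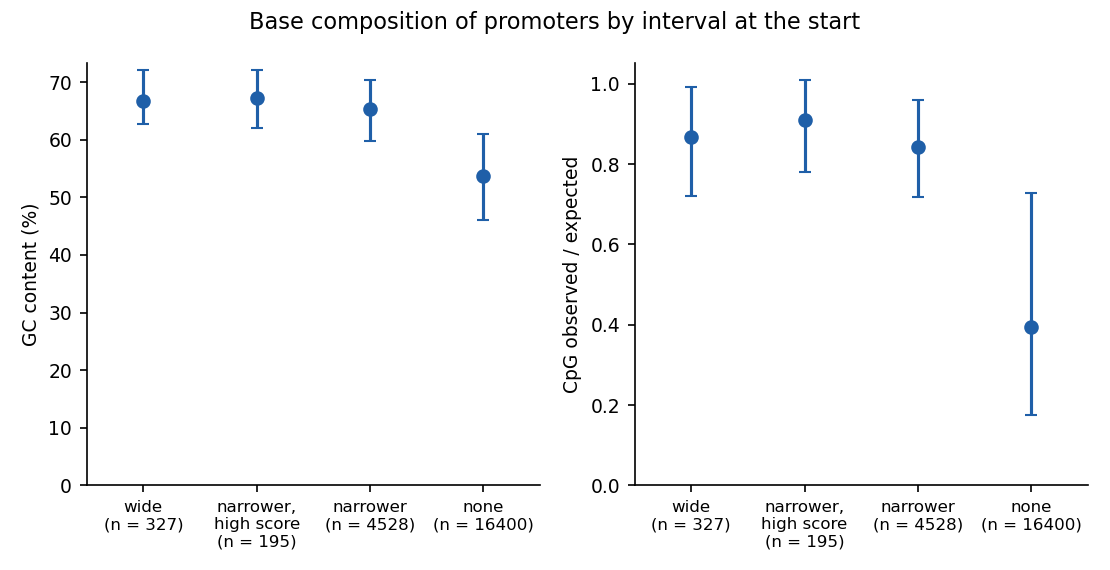
Median GC content (left, %) and ratio of observed to expected CpG (right) of 300 base promoters in wide intervals, in narrower ones of high score, in all narrower ones and in none, with quartiles as bars. The classes with an interval have medians of 65.3 to 67.3% GC, above 53.7% for promoters with none.

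Short motifs were searched on both strands of the same 300 bases, from a set picked after results were seen. GGGCGG, the core that Sp and Klf factors bind, was in 73.7% of promoters in wide intervals (68.6 to 78.4), 76.3% in narrower ones and 46.2% of all 21255 promoters. CCAAT, the NF-Y core, was in 41.9% (36.5 to 47.4), 34.1% and 38.2%, and in 26.7% (20.6 to 33.5) of promoters in high-scoring narrower intervals. CCGGAAG, an Ets family core, was in 13.8% (10.2 to 18), 21.9% (20.7 to 23.1) and 11.6%. CACGTG, an E-box, was in 15.0% (11.3 to 19.3), 11.9% and 7.84%. TATAAA was in 7.03% (4.51 to 10.4), 5.10% and 12.6%, and GATAA in 9.17% (6.28 to 12.8), 11.0% and 22.5%. The counting intervals of wide and narrower promoters were apart for CCAAT and CCGGAAG and overlapped for the other motifs. Between wide and high-scoring narrower promoters they were apart for CCAAT and overlapped for CCGGAAG. Promoters of 1 gene overlap, none of these shares was tested, and a match of letters is not a bound site.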

How the data were processed

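For the ChIP library the authors deposited enriched intervals, each with its position, a number and a score. BWA, MACS and the build mm9 are named, per the submitters' processing notes, while the list itself is named for mm10. Versions and settings were not given in the sources used. The deposited score is named a p-value, but all values exceed 70. It was treated as a score, compared only within this list. Input values were not used here. Positions were read as GRCm38, since 61.8% of intervals held a RefSeq GRCm38.p6 start in place and 1.96 or 2.19% when shifted by 5 kb. Width is end minus start as deposited, and positions are printed counting from 1. Gene ends came from 21774 protein-coding RefSeq records, after leaving out 348 records (113 protein-coding) placed on scaffolds. The gene table has no strand, so starts and strands came from 32851 promoters, none on chromosome 18, and intervals without a listed start may hold one. Exon, intron and UTR classes were not analysed here.

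Counts, medians and shares with 95% Clopper-Pearson intervals, which cover counting error only, were computed in Python 3.11.15 with pandas 2.3.3, numpy 2.4.6 and scipy 1.17.1, and drawn with matplotlib 3.10.9. A share of 0 allows up to 3 of the total. The steps were tested on simulated data. Members and lists were chosen with earlier results of these data known. Of 799 list entries 1 was unmatched. Named were the 20 best-scoring and 10 widest wide intervals, the 5 lowest, the 5 best narrower ones, 5 on each side of the rule, up to 4 best wide members of each list, up to 8 over 5 kb from a gene end, up to 5 reaching 3 or more genes, and others said to be chosen after their values were seen. Further names illustrate a count: genes with 2 wide intervals, records inside an interval, neighbours, pairs, Jund, Tnrc18 and Arid1a past their starts, and the other listed family members. A few genes are not reported here by name. Alternatives were other widths, windows, midpoints, joined gaps and whole records.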

Additional observations from a re-analysis of the deposited data

How the results depend on the processing

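No paired analysis was possible because there was 1 ChIP library. A rule of 1500 bp gave 1165 wide intervals and one of 2500 bp gave 102, at an end of 1223 and 112 protein-coding genes. Their median score was 2.15 and 3.66 times that of narrower intervals (2.85 at 2000 bp), and their median score per kb 1.11 and 1.21 times (1.18). The share with a midpoint inside a record over 1 kb from its ends was 26.5 and 52.9% (36.0%). With a window of 5 kb 93.5% were at a gene end and 38.6% reached 2 or more genes. With the midpoint in place of any overlap 59.3% were at a gene end. Each width rule changes the members themselves, and each window the stretch to be reached. Joining gaps under 500 bp gave 459 wide intervals, within 1.5 times of 339. The number of protein-coding genes with a wide interval at an end was 474 with the 5 kb window and 253 with the midpoint, against 362. Both were within 1.5 times. The remaining settings left shares inside their counting intervals and gene counts within 1.5 times. For the gene lists 88 alternatives were added after seeing the data: 52 left the count of genes within 1.5 times and 36 moved it further, most of them by another width rule. At 1500 bp all protein-coding genes had 5.62%, SR and hnRNP genes 36.8%, Dusp, Spry and Spred genes 33.3%, the actin and microtubule list 31.8% and ribosomal protein genes 19.8%. With 1 library, no replicate could be left out, and depth is unknown, so the lowest detectable enrichment is too.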

Other observations

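Some RNA genes lay wholly inside wide intervals, outside the protein-coding counts. There were 4 miRNA records, 1 tRNA, 1 snoRNA and 3 lncRNA records. Mir3082 lay in the weakest wide interval of the list (score 72.0), Mir6991 in one of 2175 bp (428.21) and Mir7238 in one of 2360 bp (164.22). The arginine tRNA gene n-TRtcg5 lay in 2412 bp with a score of 499.26. The miRNA, tRNA and snoRNA records made up 1.82 to 3.42% of their intervals, and the lncRNA records 13% (Gm33230), 38.9% (1700016A09Rik) and 68.5% (4930526I15Rik). Presence inside an interval does not say where within it the enrichment lay.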
